A study of Mus musculus with 21 samples.

Results

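The 10 genes described here cover innate sensing and the interleukin-1 pathway: Tlr2, Tlr4, Tlr7, Tlr9, Myd88, Nlrp3, Casp1, Il1b, Il1rn and Il1r2. They were taken by name, as 10 of the 54532 genes in a table of RNA-seq read counts, and all 10 passed the filter on low counts that left 16262 genes for testing. RNA came from c-kit+ bone marrow cells of C57BL/6 mice, enriched with magnetic beads for CD117, the stem cell factor receptor carried by blood progenitors. Of 11 libraries, 3 were Asxl1-/-Jak2V617F, 3 were Jak2V617F, 2 were Asxl1-/- and 3 were WT. Jak2V617F is the activating kinase mutation of myeloproliferative neoplasms, Asxl1 encodes a chromatin regulator often mutated beside it, and Asxl1-/-Jak2V617F cells carry both lesions. The labels name neither the promoter or Cre line behind each allele nor the age of the mice, and they do not say whether replicates came from separate mice. The p-values therefore cover only the spread between these libraries, part of which may be technical.

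Toll-like receptors recognise microbial molecules at the cell surface (Tlr2 for lipoproteins, Tlr4 for lipopolysaccharide) or inside endosomes (Tlr7 for single-stranded RNA, Tlr9 for unmethylated CpG DNA), and all of these signal through the adaptor Myd88. Signals of this kind raise transcription of Il1b, whose precursor protein is cut to active interleukin-1 beta by the protease Casp1 once a sensor such as Nlrp3 has assembled an inflammasome. Il1rn encodes a secreted antagonist that occupies the signalling receptor, and Il1r2 a decoy receptor that binds interleukin-1 without signalling. In marrow, mature myeloid cells carry most of these genes, and progenitors can also respond to Toll-like receptor ligands and to interleukin-1.

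Libraries held 16198011 to 19196283 counts. In counts scaled to library size (CPM, mean ± SD), Asxl1 was at 96.4 ± 3.61 in Asxl1-/-Jak2V617F cells (n = 3), 157 ± 34.4 in Jak2V617F cells (n = 3), 93.0 ± 5.66 in Asxl1-/- cells (n = 2) and 162 ± 1.41 in WT cells (n = 3), so reads over the gene were lower but not absent in the libraries labelled as lacking it. Kit, the gene of the marker used for enrichment, lay between 218.8 and 338.3 CPM in every library, and 12 markers of maturing neutrophils were present as well, summing to between 1920 and 55621 CPM. The 8 progenitor markers, Kit among them, did not hold steady as a list. They summed to 937 to 1121 CPM in Asxl1-/-Jak2V617F, 668 to 790 CPM in Jak2V617F, 1142 to 1186 CPM in Asxl1-/- and 1051 to 1178 CPM in WT libraries. At an edgeR adjusted p under 0.05, 6 of 8 were lower in Jak2V617F than in WT cells, Cd34 (log2 -2.91) and Hlf (-2.92) the most. In that comparison 29.2% of all genes tested were called lower. Likewise 6 of 8 were higher in Asxl1-/-Jak2V617F than in Jak2V617F cells, where 24.5% of all genes tested were called higher. The 3 Jak2V617F libraries stood apart from the other 8 on the first principal component of all genes tested, which held 51.5% of the variance. The labels give no sex, and the libraries differed in it: Jak2V617F 2 and both Asxl1-/- libraries had 202 to 257 CPM over Y-linked genes and at most 0.294 CPM of Xist, while the other 8 had 1390 to 2150 CPM of Xist and 0.161 to 38.0 CPM over Y-linked genes. Asxl1-/- and sex therefore cannot be told apart except through Jak2V617F 2.

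In length-scaled levels (CPM per kilobase of exon, RPKM, which allow genes to be compared), Myd88 and Casp1 were the highest of the 10 genes in all 4 genotypes. In Asxl1-/-Jak2V617F cells, Myd88 at 26.5 ± 2.96 RPKM and Casp1 at 25.7 ± 3.90 did not differ beyond their SDs, and Il1r2 (12.8), Il1b (9.99), Tlr2 (7.10) and Tlr4 (5.29) followed with SDs that overlapped from each gene to the next. A gap larger than the SDs separated Tlr4 from Nlrp3 (1.75), Tlr7 (1.32), Il1rn (1.11) and Tlr9 (0.88). In Jak2V617F cells Myd88 at 20.3 ± 0.71 RPKM stood alone, Casp1 at 5.45 ± 0.48 was next, and Il1b (4.50) and Tlr9 (3.46) stood above Il1r2 (2.77), Tlr2 (1.73), Tlr7 (1.48), Nlrp3 (1.20) and Tlr4 (0.81), each within the SDs of its neighbour. Il1rn was last in Jak2V617F cells at 0.186 ± 0.087 RPKM, below Tlr4 by more than the SDs.

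Asxl1-/- and WT cells shared the order of the first 4 genes. In Asxl1-/- cells these were Casp1 (26.3 RPKM), Myd88 (24.6), Il1r2 (14.6) and Tlr2 (6.94), and in WT cells Casp1 (24.8), Myd88 (21.0), Il1r2 (10.3) and Tlr2 (5.55). Casp1 and Myd88 did not differ beyond their SDs in either, and Il1r2 lay below Myd88 and above Tlr2 by more than the SDs in both. Tlr9 was at 0.987 RPKM in Asxl1-/- cells and at 1.27 RPKM in WT cells, at or next to the bottom of the order.

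**Figure D1:**
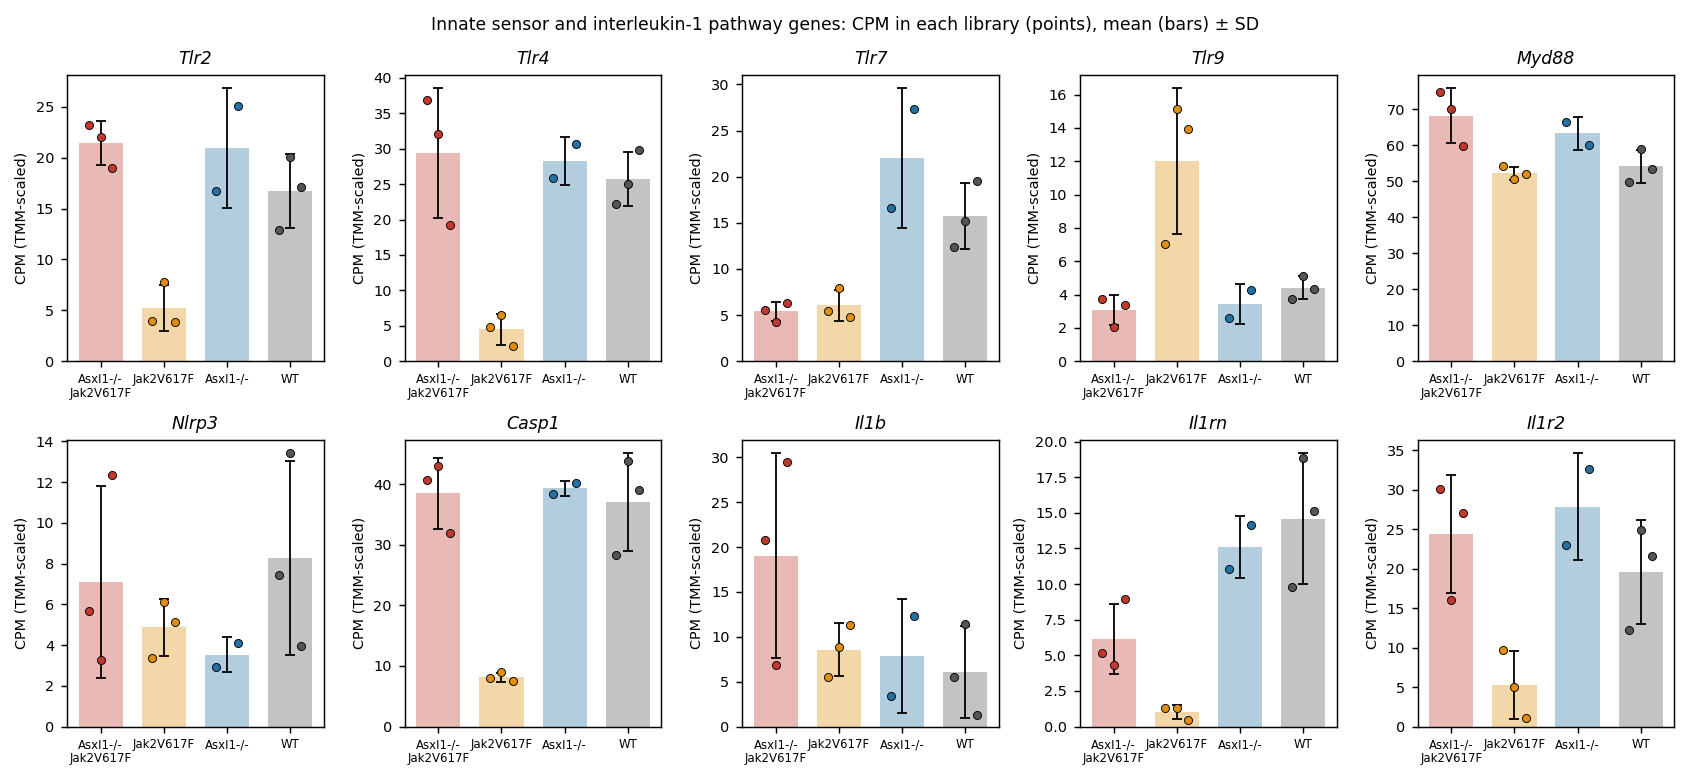
CPM scaled by library size and TMM factor (vertical axes) of the 10 genes in each of the 11 libraries (points), by genotype, with bars for the mean and error bars for the SD. Tlr2, Tlr4, Casp1, Il1rn and Il1r2 were low in all 3 Jak2V617F libraries, Tlr9 was high there, Tlr7 was low in both genotypes with Jak2V617F, and Il1b and Nlrp3 varied widely among replicates.

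The genes lie on 7 chromosomes of the mm10 table: Tlr2 at chromosome 3, 83836272 to 83841767, on the minus strand; Tlr4 at chromosome 4, 66827584 to 66930284, plus; and Tlr7 at chromosome X, 167304929 to 167330558, minus. Chromosome 9 holds Tlr9 (106222598 to 106226883, plus), Myd88 (119335934 to 119341411, minus) and Casp1 (5298517 to 5307265, plus). Nlrp3 is on chromosome 11 (59541568 to 59566956, plus), Il1b and Il1rn on chromosome 2 (129364570 to 129371139, minus, and 24336853 to 24351494, plus), and Il1r2 on chromosome 1 (40074079 to 40125231, plus). All 10 are annotated as protein coding.

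RefSeq promoter windows (GRCm38.p6, 250 bases before to 50 after an annotated start) were at hand for 8 of the 10 genes, not for Tlr4 or Tlr7. Those of Tlr2 and Casp1, which were low in Jak2V617F cells, and that of Tlr9, which was high there, are shown 5′ to 3′ on the gene's strand.
Tlr2 promoter, chr3:83841559-83841858, minus strand: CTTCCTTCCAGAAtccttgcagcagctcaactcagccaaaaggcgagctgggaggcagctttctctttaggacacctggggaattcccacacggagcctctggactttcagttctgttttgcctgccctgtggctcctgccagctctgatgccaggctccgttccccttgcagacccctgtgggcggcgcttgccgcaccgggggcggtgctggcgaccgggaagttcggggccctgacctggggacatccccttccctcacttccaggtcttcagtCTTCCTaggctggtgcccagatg
Casp1 promoter, chr9:5298267-5298566, plus strand: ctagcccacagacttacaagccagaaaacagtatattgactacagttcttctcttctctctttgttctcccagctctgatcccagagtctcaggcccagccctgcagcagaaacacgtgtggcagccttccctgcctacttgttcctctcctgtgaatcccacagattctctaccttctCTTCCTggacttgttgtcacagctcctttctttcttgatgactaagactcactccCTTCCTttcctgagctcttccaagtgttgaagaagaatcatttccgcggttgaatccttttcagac
Tlr9 promoter, chr9:106222348-106222647, plus strand: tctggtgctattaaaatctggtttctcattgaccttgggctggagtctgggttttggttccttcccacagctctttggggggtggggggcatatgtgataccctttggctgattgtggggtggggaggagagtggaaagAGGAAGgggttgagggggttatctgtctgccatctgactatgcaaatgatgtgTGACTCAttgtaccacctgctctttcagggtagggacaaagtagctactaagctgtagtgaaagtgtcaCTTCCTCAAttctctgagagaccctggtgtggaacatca
Capitals mark matches, on either strand, to the core AGGAAG bound by PU.1 and other ETS factors, to STAT (TTCNNNGAA), C/EBP (TTNNGNAA), NF-kB (GGANTTTCC) or AP-1 (TGANTCA) motifs. AGGAAG occurred in 35.4% of 32851 RefSeq promoter windows, TTNNGNAA in 40.7%, TGANTCA in 7.81%, TTCNNNGAA in 8.30% and GGANTTTCC in 1.25%. The Tlr2 window held 2 copies of AGGAAG, read on the opposite strand, at -250 and 28 from the start, the first overlapping a C/EBP match at -245. The Casp1 window held 2 copies at -71 and -16, also on the opposite strand. The Tlr9 window held AGGAAG at -111 and, on the opposite strand, at 12, where it overlapped a C/EBP match, and it alone of the 3 held an AP-1 match, at -58. The Myd88 window held 1 STAT and 1 NF-kB match, and the Il1b window 1 C/EBP match. Of the remaining windows, that of Il1r2 held a STAT match at -111. Those of Nlrp3 held AGGAAG, C/EBP matches and an NF-kB match at -122, and those of Il1rn C/EBP matches and an AP-1 match at -141. These are matches of letters, and binding was not measured here.

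Asxl1-/-Jak2V617F cells were first set against Jak2V617F cells, which asks what loss of Asxl1 adds to the kinase mutation. Tlr2, Tlr4, Casp1, Il1rn and Il1r2 were 4.10- to 6.52-fold higher in Asxl1-/-Jak2V617F cells, Myd88 was 1.31-fold higher, and Tlr9 was 3.92-fold lower. Il1b, Nlrp3 and Tlr7 did not pass the test. So 6 of the 10 genes rose and 1 fell at an adjusted p under 0.05 (edgeR quasi-likelihood test, Benjamini-Hochberg over all genes tested), in a comparison where 24.5% of all genes tested were called higher and 19.8% lower. The median log2 fold change was 1.59 over the 10 genes and -0.01 over all genes tested.

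The surface receptors had the following levels. Tlr2 was at 23.2, 22.0 and 19.0 CPM in the 3 Asxl1-/-Jak2V617F libraries, against 3.92, 7.80 and 3.90 CPM in the 3 Jak2V617F libraries. The groups did not overlap, and the log2 fold change was 2.03 ± 0.28 (SE, edgeR adjusted p = 0.000169). Tlr4 was at 36.9, 32.0 and 19.2 CPM in Asxl1-/-Jak2V617F cells, against 4.78, 6.47 and 2.22 CPM in Jak2V617F cells. The lowest Asxl1-/-Jak2V617F library was still well above the highest Jak2V617F library, and the log2 fold change was 2.71 ± 0.35 (edgeR adjusted p = 0.000166).

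The endosomal receptors did not follow them. Tlr9 was at 3.76, 2.06 and 3.36 CPM in Asxl1-/-Jak2V617F cells, against 7.03, 15.1 and 13.9 CPM in Jak2V617F cells. The 3 Jak2V617F libraries were the highest of all 11 for Tlr9, and the log2 fold change was -1.97 ± 0.34 (edgeR adjusted p = 0.000599). These values rest on 36 to 67 reads per Asxl1-/-Jak2V617F library and 131 to 308 per Jak2V617F library. Tlr7 was at 5.56, 4.29 and 6.35 CPM in Asxl1-/-Jak2V617F cells, against 5.42, 7.95 and 4.80 CPM in Jak2V617F cells. These groups overlapped, and the log2 difference of -0.17 ± 0.27 did not pass the test (edgeR adjusted p = 0.645).

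Myd88, the adaptor shared by these receptors and by the interleukin-1 receptor, was at 74.8, 70.1 and 59.9 CPM in Asxl1-/-Jak2V617F cells, against 54.3, 50.7 and 52.0 CPM in Jak2V617F cells. The groups did not overlap, but the log2 fold change was 0.38 ± 0.10 (edgeR adjusted p = 0.00843), the smallest of the 7 that passed.

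Casp1 had the smallest adjusted p of the 10 genes. It was at 40.6, 43.0 and 31.9 CPM in Asxl1-/-Jak2V617F cells, against 8.05, 8.93 and 7.49 CPM in Jak2V617F cells, a log2 fold change of 2.24 ± 0.17 (edgeR adjusted p = 1.86e-06). Nlrp3 was at 5.67, 3.26 and 12.3 CPM in Asxl1-/-Jak2V617F cells, against 3.38, 6.13 and 5.12 CPM in Jak2V617F cells. The Asxl1-/-Jak2V617F libraries spread over the whole Jak2V617F range for this inflammasome sensor, and the log2 difference of 0.54 ± 0.52 did not pass (edgeR adjusted p = 0.439).

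Il1b, the cytokine itself, was at 20.8, 6.87 and 29.4 CPM in Asxl1-/-Jak2V617F cells, against 5.53, 8.88 and 11.3 CPM in Jak2V617F cells. Asxl1-/-Jak2V617F 1 and 3 were the highest of all 11 libraries, Asxl1-/-Jak2V617F 2 lay within the Jak2V617F range, and the log2 difference of 1.15 ± 0.79 did not pass (edgeR adjusted p = 0.274). The antagonist gene Il1rn was at 5.16, 4.35 and 8.98 CPM in Asxl1-/-Jak2V617F cells, against 1.29, 1.32 and 0.475 CPM in Jak2V617F cells. The groups did not overlap, the Jak2V617F values rest on 9 to 27 reads, and the log2 fold change was 2.57 ± 0.41 (edgeR adjusted p = 0.000439). The decoy receptor gene Il1r2 was at 30.1, 16.0 and 27 CPM in Asxl1-/-Jak2V617F cells, against 9.72, 5.05 and 1.11 CPM in Jak2V617F cells. Its log2 fold change of 2.20 ± 0.61 passed (edgeR adjusted p = 0.0173), but the call was lost without Asxl1-/-Jak2V617F 1 (log2 2.02, adjusted p = 0.0554), without Jak2V617F 2 (2.16, 0.0578), without a filter on low counts (0.0546) and with a term for sex (0.0589), and without Jak2V617F 1 the log2 fold change was 2.97.

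Markers of neutrophils and monocytes moved in the same direction, and those of macrophages did not. All 12 neutrophil markers were higher in Asxl1-/-Jak2V617F than in Jak2V617F cells, their summed level being 24996 to 31023 CPM in Asxl1-/-Jak2V617F libraries and 1920 to 5131 CPM in Jak2V617F libraries. Of 9 monocyte markers 7 were higher, with sums of 3505 to 3905 CPM in Asxl1-/-Jak2V617F cells, against 300.2 to 677 CPM in Jak2V617F libraries, and all 6 mast cell and basophil markers were higher. Of 9 macrophage markers 0 were higher and 1, Mertk, was lower (log2 -3.26), with sums of 106 to 167 CPM in Asxl1-/-Jak2V617F and 37.3 to 198 CPM in Jak2V617F libraries. Dendritic cell markers moved with Tlr9 instead: 6 of 9 were lower in Asxl1-/-Jak2V617F cells, with sums of 204 to 219 CPM there and 773 to 1049 CPM in Jak2V617F cells. They were not alone, as 8 of 9 erythroid, 6 of 8 T and NK cell and 3 of 8 B cell markers were lower as well. One further T and NK cell marker, Nkg7, was higher (log2 3.89). Of all genes tested, 24.5% were called higher and 19.8% lower. No marker of these lists was at 0 CPM over any group. The part of these markers in the results was not tested, and in bulk RNA fewer cells of a type and less RNA per cell cannot be told apart.

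Jak2V617F cells were next set against WT cells, the comparison for the kinase mutation alone. Casp1, Tlr2, Tlr4, Tlr7, Il1rn and Il1r2 were 2.59- to 14.1-fold lower in Jak2V617F cells, and Tlr9 was 2.73-fold higher. So 1 of the 10 genes rose and 6 fell, where 24.4% of all genes tested were called higher and 29.2% lower. The median log2 fold change was -1.53 over the 10 genes and -0.05 over all genes tested. These tests share the Jak2V617F libraries with those above, so opposite signs in the 2 comparisons are not independent.

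Among the surface receptors, Tlr2 was at 3.92, 7.80 and 3.90 CPM in Jak2V617F cells, against 12.9, 20.1 and 17.1 CPM in WT cells. Its log2 fold change was -1.68 ± 0.28 (edgeR adjusted p = 0.00044), with no overlap. Tlr4 was at 4.78, 6.47 and 2.22 CPM in Jak2V617F cells, against 22.2, 25.1 and 29.8 CPM in WT cells, again with no overlap, and its log2 fold change was -2.51 ± 0.35 (edgeR adjusted p = 0.000188). The endosomal receptors went opposite ways. Tlr7 was at 5.42, 7.95 and 4.80 CPM in Jak2V617F cells, against 12.4, 15.2 and 19.5 CPM in WT cells. Tlr9 was at 7.03, 15.1 and 13.9 CPM in Jak2V617F cells, against 3.75, 5.13 and 4.34 CPM in WT cells. Neither overlapped between the groups, and the log2 fold changes were -1.37 ± 0.26 for Tlr7 (edgeR adjusted p = 0.000968) and 1.45 ± 0.33 for Tlr9 (edgeR adjusted p = 0.00288).

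The largest fold among the 10 genes was that of the antagonist. Il1rn was at 1.29, 1.32 and 0.475 CPM in Jak2V617F cells, against 9.79, 18.9 and 15.1 CPM in WT cells, a log2 fold change of -3.81 ± 0.42 (edgeR adjusted p = 2.22e-05). Il1r2 was at 9.72, 5.05 and 1.11 CPM in Jak2V617F cells, against 12.3, 24.9 and 21.6 CPM in WT cells. The highest Jak2V617F and the lowest WT library were close for Il1r2, and its log2 fold change of -1.89 ± 0.61 (edgeR adjusted p = 0.0276) lost the call without Jak2V617F 2 (adjusted p = 0.0817), WT 2 (0.0817) or WT 3 (0.0608), without a filter (0.0791), with a term for sex (0.0791) or with the groups fitted alone (0.0692), and was -2.64 without Jak2V617F 1. Il1b was at 5.53, 8.88 and 11.3 CPM in Jak2V617F cells, against 5.54, 11.4 and 1.27 CPM in WT cells. The WT libraries spread beyond the Jak2V617F range on both sides, and the log2 difference of 0.49 ± 0.80 did not pass (edgeR adjusted p = 0.631).

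Casp1 was at 8.05, 8.93 and 7.49 CPM in Jak2V617F cells, against 28.3, 43.9 and 39.1 CPM in WT cells. The groups were far apart, with a log2 fold change of -2.18 ± 0.17 (edgeR adjusted p = 1.80e-06). Nlrp3 was at 3.38, 6.13 and 5.12 CPM in Jak2V617F cells, against 7.44, 13.4 and 3.98 CPM in WT cells, and its log2 difference of -0.76 ± 0.52 did not pass (edgeR adjusted p = 0.242). Myd88 was at 54.3, 50.7 and 52.0 CPM in Jak2V617F cells, against 49.9, 59.1 and 53.4 CPM in WT cells. The Jak2V617F values lay inside the WT range for Myd88, with a log2 difference of -0.05 ± 0.10 (edgeR adjusted p = 0.70). The markers again moved beside these genes. In Jak2V617F cells 12 of 12 neutrophil, 8 of 9 monocyte and 8 of 9 macrophage markers were lower than in WT cells. So were 5 of 6 mast cell and basophil and 6 of 8 progenitor markers. Higher were 6 of 9 dendritic cell, 8 of 9 erythroid and 1 of 8 B cell markers. Of 8 T and NK cell markers, 2 were higher and 1 lower. Over all genes tested, 24.4% were called higher and 29.2% lower. The part of these markers in the result was not tested.

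**Figure D2:**
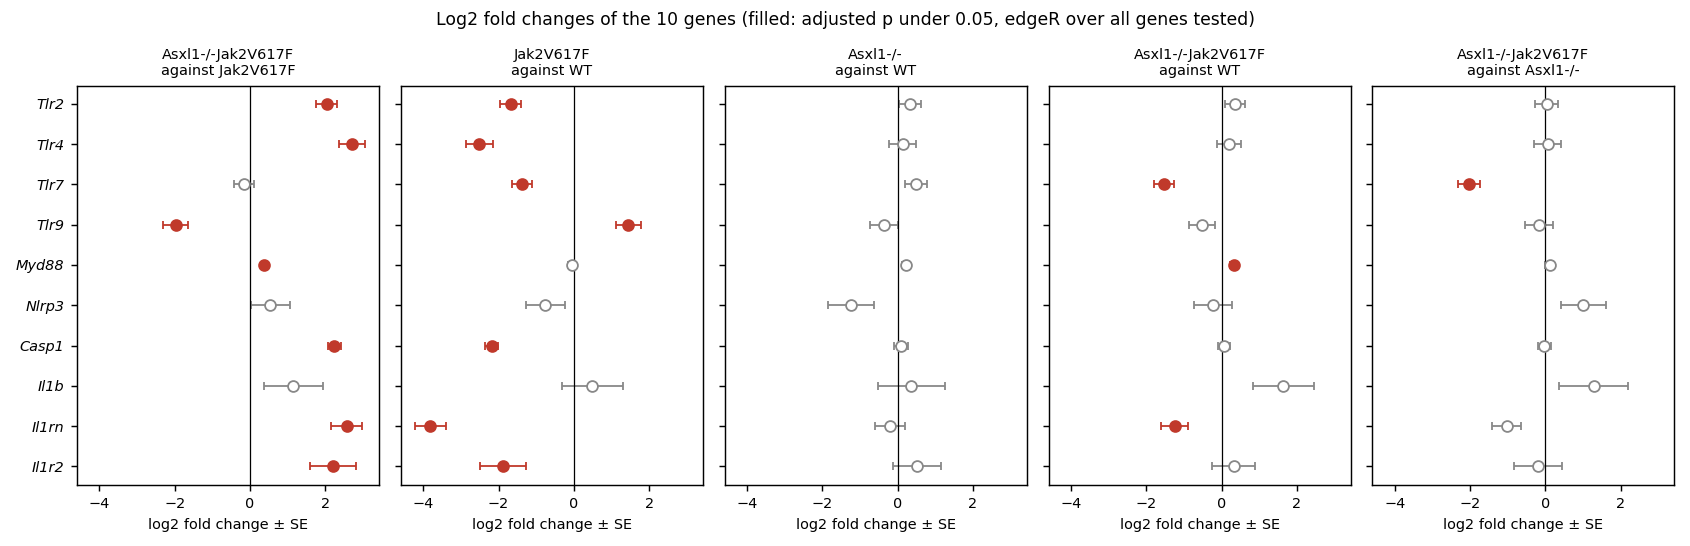
Log2 fold change (horizontal axes, points) ± SE (bars) of the 10 genes in each of the 5 comparisons, the first-named genotype over the second, with filled points for an edgeR adjusted p under 0.05. The 2 left panels hold 7 filled points each, the middle panel none, and Tlr7 is low in both right panels.

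In Asxl1-/- cells set against WT cells, none of the 10 genes passed the test, by edgeR or by DESeq2, and 0 had an unadjusted edgeR p under 0.05. In this comparison 11.3% of all genes tested were called higher and 11.2% lower. The median log2 difference was 0.18 over the 10 genes and -0.01 over all genes tested. The surface receptors were close to WT: Tlr2 was at 16.7 and 25.1 CPM in Asxl1-/- cells, against 12.9, 20.1 and 17.1 CPM in WT cells, and Tlr4 at 25.8 and 30.6 CPM in Asxl1-/- cells, against 22.2, 25.1 and 29.8 CPM in WT cells. The ranges of both receptors overlapped. Casp1 was at 38.4 and 40.2 CPM in Asxl1-/- cells, within the WT range of 28.3 to 43.9 CPM, a log2 difference of 0.08 ± 0.18 (edgeR adjusted p = 0.77).

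Tlr7 was at 16.6 and 27.4 CPM in Asxl1-/- cells, against 12.4, 15.2 and 19.5 CPM in WT cells, and Asxl1-/- 2 was the highest of all 11 libraries for this X-linked gene. Myd88, at 66.5 and 60.1 CPM in Asxl1-/- cells, lay above its 49.9 to 59.1 CPM in WT cells, and the log2 difference of 0.23 ± 0.11 did not pass (edgeR adjusted p = 0.164). Nlrp3 was at 2.92 and 4.13 CPM in Asxl1-/- cells, against 7.44, 13.4 and 3.98 CPM in WT cells, which was the widest log2 difference of the 10 at -1.23 ± 0.61 (edgeR adjusted p = 0.17). Il1b was at 3.38 and 12.3 CPM in Asxl1-/- cells, about the span of the 1.27 to 11.4 CPM in WT cells. Il1rn (11.1 and 14.1 CPM in Asxl1-/- cells, 9.79 to 18.9 CPM in WT cells) and Il1r2 (23.0 and 32.6 CPM in Asxl1-/- cells, 12.3 to 24.9 CPM in WT cells) also overlapped. With a term for sex, the log2 differences of Tlr2 and Tlr4 were -0.67 and -0.75, so with 2 libraries of the other sex this comparison does not settle the direction of either.

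Asxl1-/-Jak2V617F cells differed from WT cells in 3 of the 10 genes. Myd88 rose (log2 fold change 0.34 ± 0.10, edgeR adjusted p = 0.0441), where 8.30% of all genes tested were called higher, and Tlr7 and Il1rn fell, where 6.76% were called lower. Tlr7 was at 5.56, 4.29 and 6.35 CPM in Asxl1-/-Jak2V617F cells, against 12.4, 15.2 and 19.5 CPM in WT cells, a log2 fold change of -1.54 ± 0.27 (edgeR adjusted p = 0.00826). The groups did not overlap. Il1rn was at 5.16, 4.35 and 8.98 CPM in Asxl1-/-Jak2V617F cells, against 9.79, 18.9 and 15.1 CPM in WT cells, a log2 fold change of -1.24 ± 0.36 (edgeR adjusted p = 0.041). The Myd88 and Il1rn calls were each lost when any of 7 libraries was left out, for Myd88 any but a Jak2V617F library or Asxl1-/-Jak2V617F 3 (adjusted p up to 0.137) and for Il1rn Asxl1-/-Jak2V617F 1 or 2, Jak2V617F 1, either Asxl1-/- library, WT 2 or WT 3 (adjusted p up to 0.148). Myd88 also lost its call without a filter (0.052), with a term for sex (0.0512) and with the 2 groups fitted alone (0.0693), and Il1rn with the groups fitted alone (0.0538). Tlr2, Tlr4, Casp1 and Il1r2 had log2 differences of 0.36 ± 0.27, 0.19 ± 0.32, 0.05 ± 0.16 and 0.32 ± 0.57, and none passed. Il1b had the widest difference that missed the test, 1.64 ± 0.81 (edgeR adjusted p = 0.192).

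Against Asxl1-/- cells, Tlr7 was again lower in Asxl1-/-Jak2V617F cells and was the only gene of the 10 to pass, where 3.31% of all genes tested were called higher and 2.22% lower. It was at 5.56, 4.29 and 6.35 CPM in Asxl1-/-Jak2V617F cells, against 16.6 and 27.4 CPM in Asxl1-/- cells, a log2 fold change of -2.03 ± 0.29 (edgeR adjusted p = 0.00365). The call was lost without Asxl1-/- 2 (log2 -1.62, adjusted p = 0.0642) and with a term for sex (-1.39, adjusted p = 0.256). Il1rn was next, with a log2 difference of -1.03 and an unadjusted p of 0.0234 that did not pass adjustment (edgeR adjusted p = 0.157). Macrophage markers moved with Tlr7: 8 of 9 were lower in Asxl1-/-Jak2V617F cells than in Asxl1-/- cells and than in WT cells. Their sums were 106 to 167 CPM in Asxl1-/-Jak2V617F, 37.3 to 198 CPM in Jak2V617F, 1067 to 1795 CPM in Asxl1-/- and 507 to 1159 CPM in WT libraries, and C1qa, which encodes a complement component made by tissue macrophages, averaged 5.56 CPM in Asxl1-/-Jak2V617F, 9.68 CPM in Jak2V617F, 183 CPM in Asxl1-/- and 86.9 CPM in WT cells. Their part in the Tlr7 result was not tested.

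**Figure D3:**
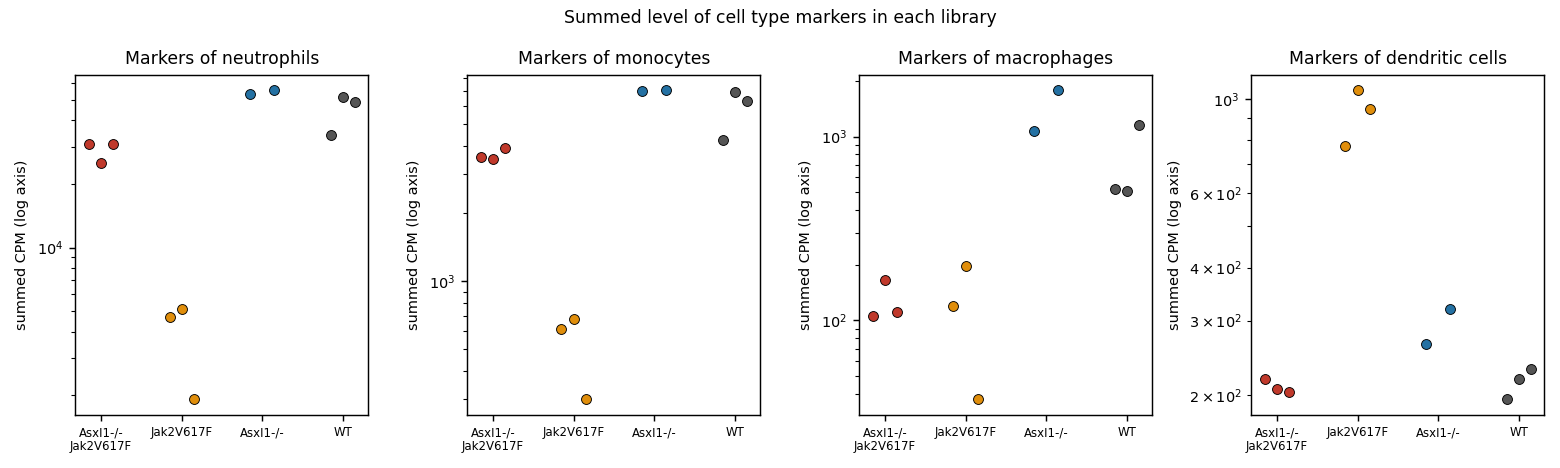
Summed CPM (vertical log axes) of the markers of 4 myeloid cell types in each library (points), by genotype. Neutrophil and monocyte markers were lowest in the Jak2V617F libraries, macrophage markers were below 200 CPM in all 6 libraries with Jak2V617F, and dendritic cell markers were highest in the 3 Jak2V617F libraries.

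The interaction asks whether Asxl1 loss acted differently on the Jak2V617F and the WT background. It passed for 5 of the 10 genes, near the 41.6% of all genes tested that were called. With Asxl1 loss, Casp1 was higher by a log2 fold of 2.24 on the Jak2V617F background, its difference on the WT background was 0.08, and the log2 interaction was 2.15 ± 0.25 (edgeR adjusted p = 1.00e-04). The interactions of Il1rn (2.78 ± 0.58, adjusted p = 0.00325), Tlr4 (2.57 ± 0.51, 0.00313) and Tlr2 (1.71 ± 0.41, 0.00745) also passed by edgeR and were positive. Tlr9 had a negative one of -1.61 ± 0.50 (edgeR adjusted p = 0.0224), which lost its call without Asxl1-/- 2 (-1.20, adjusted p = 0.13) and with a term for sex (-0.89, adjusted p = 0.451). With the term for sex the interactions of Tlr2, Tlr4 and Il1rn were 3.12, 3.82 and 3.59 and those calls held. That term is estimated through Jak2V617F 2 alone, the only library that differs in sex from others of its genotype. Calls kept or lost with it therefore depend on that library. Nlrp3 (1.77 ± 0.80, edgeR adjusted p = 0.101) and Il1r2 (1.70 ± 0.89, 0.157) did not pass, but Nlrp3 did without Asxl1-/-Jak2V617F 2 (adjusted p = 0.0449), without WT 3 (0.047) or by DESeq2 (0.0479), and Il1r2 without Jak2V617F 1 (0.0419).

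Ratios between length-scaled levels within a library put the cytokine beside its inhibitors. Il1b over Il1rn was 11.7, 4.58 and 9.52 in Asxl1-/-Jak2V617F cells, 12.5, 19.5 and 69.3 in Jak2V617F cells, 0.886 and 2.53 in Asxl1-/- cells, and 1.64, 1.76 and 0.243 in WT cells. The extreme values rest on few reads, 9 of Il1rn in Jak2V617F 3 (69.3) and 21 of Il1b in WT 3 (0.243). Every library with Jak2V617F was above every library without it, and the mean log2 difference was 3.17 for Asxl1-/-Jak2V617F against WT and 4.85 for Jak2V617F against WT. Each had an exact 2-sided permutation p of 0.1, the smallest that 3 against 3 libraries allow (adjusted p = 0.222 over 20 ratio comparisons). These 4 pairs of genes were chosen after their values were seen. In both of these comparisons Il1rn was called lower and Il1b was not called.

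Il1b over Il1r2 was 0.691, 0.429 and 1.09 in Asxl1-/-Jak2V617F cells, 0.569, 1.76 and 10.2 in Jak2V617F cells, 0.147 and 0.378 in Asxl1-/- cells, and 0.452, 0.460 and 0.059 in WT cells. This ratio was highest in Jak2V617F 3, where it rests on 21 reads of Il1r2. It did not overlap between Jak2V617F and WT, with the same exact permutation p of 0.1. Among the receptors, Tlr9 over Tlr4 was 0.163, 0.103 and 0.280 in Asxl1-/-Jak2V617F cells, 2.35, 3.73 and 10.04 in Jak2V617F cells, 0.159 and 0.224 in Asxl1-/- cells, and 0.270, 0.327 and 0.232 in WT cells. Tlr9 therefore stood above Tlr4 in the 3 Jak2V617F libraries and below it in the other 8. Tlr9 over Tlr7 was 0.794, 0.563 and 0.621 in Asxl1-/-Jak2V617F cells, 1.52, 2.23 and 3.41 in Jak2V617F cells, 0.181 and 0.184 in Asxl1-/- cells, and 0.354, 0.396 and 0.261 in WT cells. The 4 genotypes did not overlap in this ratio, and it was lowest in Asxl1-/- cells.

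**Figure D4:**
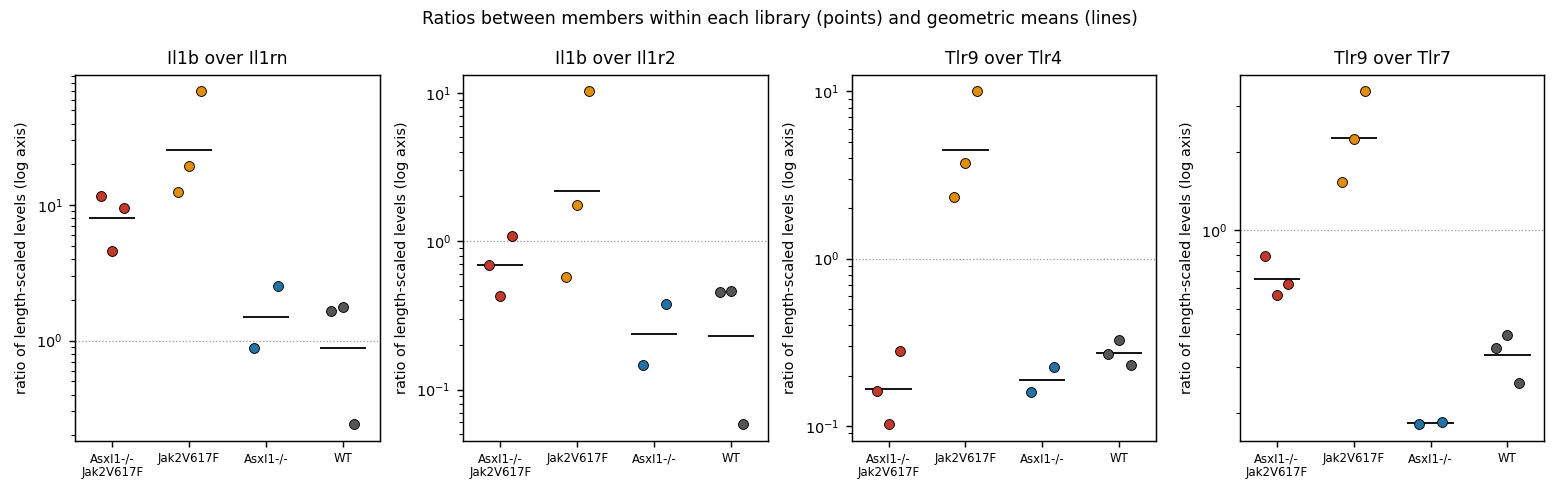
Ratio of length-scaled levels of 2 genes within each library (points, vertical log axes), with lines for the geometric mean of a genotype and a dotted line at 1. Il1b over Il1rn was above 4 in all 6 libraries with Jak2V617F and below 3 in the other 5, and Tlr9 over Tlr4 was above 2 only in Jak2V617F libraries.

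Other genes of the pathway were read from 4 lists, which were drawn up with earlier results of these data known. In Asxl1-/-Jak2V617F against Jak2V617F cells, inflammasome and cytosolic sensor genes moved as Casp1 did: 15 of 20 rose and 1 fell (24.5% and 19.8% of all genes tested), with a median log2 fold change of 1.19. The 4 with the smallest adjusted p were Naip2, a sensor of bacterial secretion systems (2.14 ± 0.12), Nlrx1, a mitochondrial member of the NLR family (2.29 ± 0.18), Nlrp1a, an inflammasome sensor (2.95 ± 0.26), and Casp8, a protease of death receptor signalling (1.06 ± 0.10). Naip2 averaged 87.2 CPM in Asxl1-/-Jak2V617F cells, against 19.8 CPM in Jak2V617F cells. Counts of Naip2 and of Nlrp1a are uncertain, since close paralogs could share their reads. Chosen after their values were seen, the adaptor Pycard (1.33 ± 0.15) and the pore-forming Gsdmd (1.51 ± 0.15), which act directly before and after Casp1 in inflammasome signalling, were among the 15. Against WT, Jak2V617F cells had 1 of the 20 higher (0 without Jak2V617F 2, Jak2V617F 3 or WT 1) and 15 lower. In that comparison 24.4% of all genes tested were called higher and 29.2% lower.

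Of 16 adaptors and kinases downstream of Toll-like and interleukin-1 receptors, 8 rose and 3 fell in Asxl1-/-Jak2V617F against Jak2V617F cells, with a median of 0.44, where 24.5% of all genes tested were called higher and 19.8% lower. So the share that fell was near that of all genes, and the 3 became 1 without Asxl1-/-Jak2V617F 1 or 2 or Jak2V617F 1 or 3. The largest of the named changes was in Irak3, a kinase-like inhibitor of this signalling, at 53.5 CPM in Asxl1-/-Jak2V617F cells, against 7.46 CPM in Jak2V617F cells (2.84 ± 0.17). Ticam2, the bridging adaptor of Tlr4, rose by 1.85 ± 0.21, Pik3ap1, a phosphoinositide 3-kinase adaptor, by 1.62 ± 0.21, and Irak1, the kinase recruited through Myd88, by 0.60 ± 0.08. In Jak2V617F against WT cells, 9 of the 16 were lower and 1 was higher, which became 2 without Asxl1-/-Jak2V617F 2 or 3, Jak2V617F 2 or 3, or WT 1 or 2. The shares of all genes tested were 29.2% lower and 24.4% higher there.

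Of the other Toll-like receptors and their helpers, 6 of 14 were higher and 4 lower in Asxl1-/-Jak2V617F against Jak2V617F cells (24.5% and 19.8% of all genes tested), with a median of 0.03. The 4 became 2 without Asxl1-/-Jak2V617F 2 or Jak2V617F 2. Jak2V617F cells had 4 of the 14 higher and 7 lower than WT cells, beside 24.4% and 29.2% of all genes tested. Cd14, the lipopolysaccharide co-receptor of Tlr4, was at 18.6 CPM in Asxl1-/-Jak2V617F cells, against 1.74 CPM in Jak2V617F cells (3.41 ± 0.39), and Cnpy3, a chaperone of Toll-like receptors, rose by 1.02 ± 0.10. Tlr11, an endosomal receptor for profilin and flagellin in mice, was at 0.893 CPM in Asxl1-/-Jak2V617F cells, against 20.7 CPM in Jak2V617F cells (-4.53 ± 0.29). Tlr3, the endosomal receptor for double-stranded RNA, was at 1.84 CPM in Asxl1-/-Jak2V617F cells, against 14.4 CPM in Jak2V617F cells (-2.96 ± 0.32). So Tlr3 and Tlr11 moved with Tlr9. Of the dendritic cell markers, 6 of 9 also moved with them. Among these, Xcr1 and Clec9a averaged 1.64 and 3.24 CPM in Asxl1-/-Jak2V617F cells and 22.6 and 32.4 CPM in Jak2V617F cells. Siglech, Ccr9 and Bst2 of the same list did not pass (log2 0.07, -1.41 and 0.42). The part of these markers was not tested.

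The interleukin-1 family list had 10 genes tested, of which 5 rose and 1 fell in Asxl1-/-Jak2V617F against Jak2V617F cells (2 without WT 1 or WT 3), beside the same shares of all genes. Il1f9, a cytokine of the interleukin-36 branch, was at 21.4 CPM in Asxl1-/-Jak2V617F cells, against 2.28 CPM in Jak2V617F cells (3.23 ± 0.63). Il1rap, the co-receptor without which the interleukin-1 receptor does not signal, rose by 1.64 ± 0.16, and Il18rap, its counterpart for interleukin-18, by 2.08 ± 0.26. Il1rl1, the receptor for interleukin-33, fell by 1.02 on the log2 scale, to 38.8 CPM in Asxl1-/-Jak2V617F against 78.8 CPM in Jak2V617F cells. The signalling receptor Il1r1 did not pass. In Jak2V617F against WT cells, 1 of the 10 was higher and 7 were lower, beside 24.4% and 29.2% of all genes tested. Across the 4 lists, at most 2 genes of any list were called in either direction in Asxl1-/- against WT, Asxl1-/-Jak2V617F against WT or Asxl1-/-Jak2V617F against Asxl1-/-, among them Il18, which was lower in Asxl1-/-Jak2V617F than in WT (-2.91 ± 0.60) and than in Asxl1-/- cells (-3.51 ± 0.63) and was named after its values were seen.

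**Figure D5:**
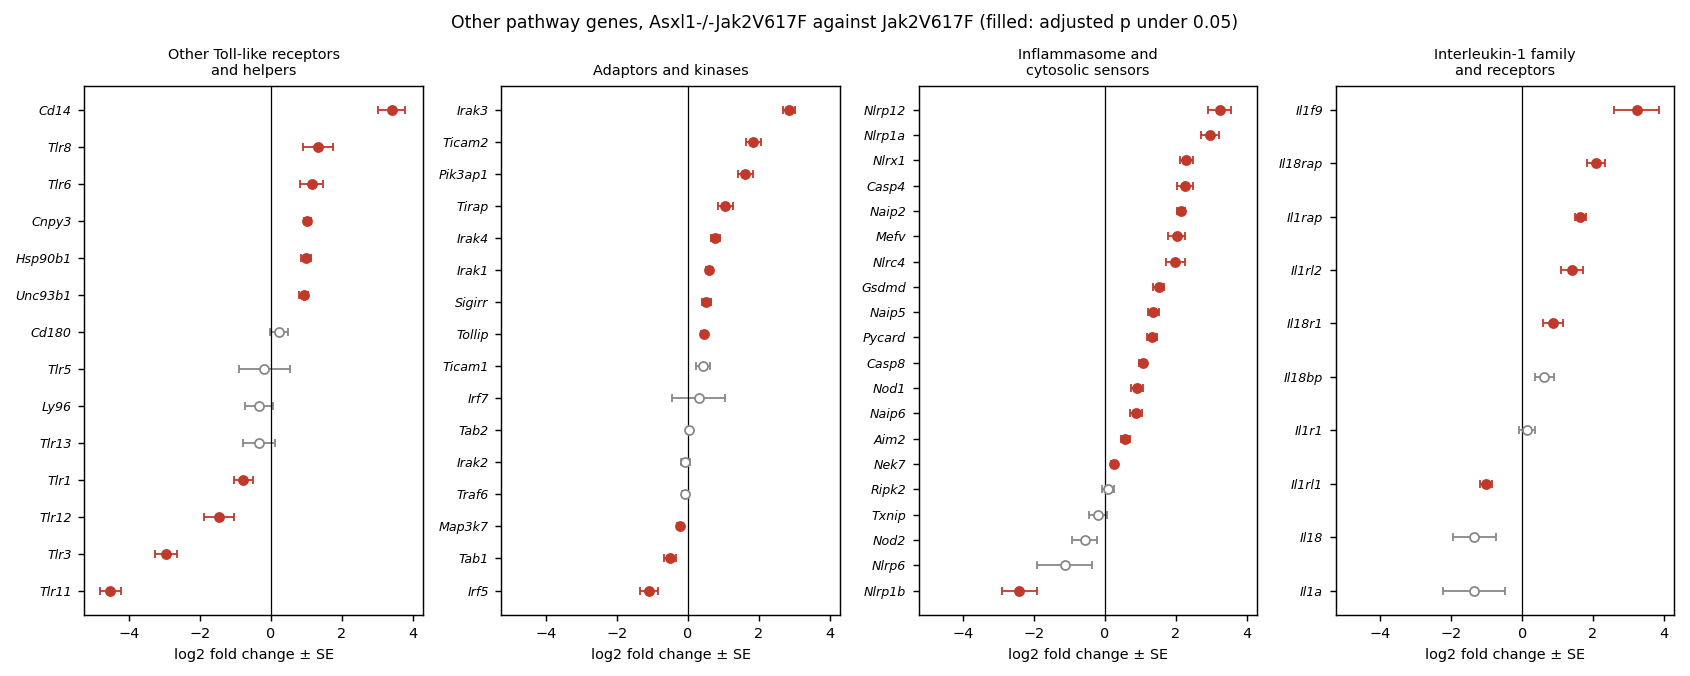
Log2 fold change (horizontal axes, points) ± SE (bars) of the other pathway genes in Asxl1-/-Jak2V617F over Jak2V617F cells, 1 panel per list, sorted by value, with filled points for an edgeR adjusted p under 0.05. Most inflammasome and cytosolic sensor genes lie to the right of 0, while the Toll-like receptor panel runs from Cd14 on the right to Tlr11 on the left.

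Some of the 10 genes had patterns closer to each other than others, measured as the root mean square difference of log2 CPM over the 11 libraries after centring each gene. Casp1 and Tlr2 differed by 0.28, Casp1 and Tlr4 by 0.40, and Tlr2 and Tlr4 by 0.46. Over protein-coding genes outside the 10 with a mean of at least 1 CPM, the nearest to Tlr2 was Fcgr4 (0.17), an activating antibody receptor, and to Tlr4 Tnfrsf23 (0.19), followed by Fcgr2b (0.22), the inhibitory antibody receptor. The nearest to Casp1 were Fam107b, Slc16a7 and Naip2 (0.14 each), to Il1rn Ppp1r42 (0.20) and Itgb2l (0.23), and to Il1r2 the formyl peptide receptor gene Fpr2 (0.31) and the chemokine receptor gene Ccr1 (0.40). Tlr7 was nearest to Rxra (0.18) and Apoe (0.21), and Tlr9 to St8sia6 (0.23). Myd88, which varied little, was nearest to Ufsp2 (0.08). Il1b had no close neighbour: the nearest, Junb and Socs3, 2 early response genes, and Acod1, an enzyme gene of activated macrophages, differed from it by 0.78 to 0.81, and Nlrp3 was 0.38 from its nearest, Ptpro. All of these distances share the same libraries and their depth.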

How the data were processed

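The authors deposited a table of raw counts of reads per Ensembl gene and library, with coordinates and exonic lengths. Per the submitters' processing notes, the tools included featureCounts 1.5.0-p3 and HISAT2 2.0.5, and the build was mm10. No source used here gives the strand setting, how multimapping reads were counted or the annotation's release. Accessibility and histone samples were not analysed here. Chi-square per degree of freedom between replicates was 7.75 to 33.1, far above sampling noise, so none was a repeat sequencing of another library. It cannot show whether replicates came from separate mice.

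Genes passing filterByExpr entered the robust quasi-likelihood test of edgeR 4.0.16 (R 4.3.3) after TMM scaling, with all 11 libraries in 1 fit on genotype. The common biological coefficient of variation was 19.7%. The interaction and the 5 comparisons are contrasts of this fit, adjusted by Benjamini-Hochberg over 16262 genes with a threshold of 0.05. The SE is the absolute log2 fold change over the square root of the F statistic. CPM use TMM-scaled library sizes, RPKM divide them by exonic length, and centred log2 CPM have a prior count of 2. DESeq2 1.42.0, other scaling and filters, the groups alone, a sex term, a replicate block and leaving out each library were tried. The script was tested on simulated data. Deviations from the group mean were correlated between same-numbered libraries of different groups (4 of 15 correlations over 0.1, from -0.199 to 0.174). With 2 or 3 libraries per group, deviations sum to 0 within a group, so this check cannot exclude pairing. The labels name none, and the main fit had no term for it.

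The 10 genes and all lists were chosen with earlier results of these data known. Of each pathway list, the 4 genes with the smallest adjusted p in Asxl1-/-Jak2V617F against Jak2V617F are named, and for each of the 10 genes up to 3 protein-coding genes with the nearest pattern. Promoter windows are RefSeq's.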

Additional observations from a re-analysis of the deposited data

Results flagged for a closer look

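The effect of Asxl1 loss differed between the Jak2V617F and the WT background for 5 of the 10 genes, by the interaction term of the edgeR fit. Of all genes tested, 41.6% passed the same test, so a share of this size is near the background and is not particular to these genes. The log2 interaction was 2.15 for Casp1 (adjusted p = 1.00e-04), 2.57 for Tlr4 (0.00313), 1.71 for Tlr2 (0.00745) and 2.78 for Il1rn (0.00325), each higher with Asxl1 loss on the Jak2V617F background. It was -1.61 for Tlr9 (edgeR adjusted p = 0.0224), lower on that background, and the call was lost with a term for sex (-0.89, adjusted p = 0.451) and without Asxl1-/- 2 (-1.20, adjusted p = 0.13).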

How the results depend on the processing

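Of the values of the 10 genes that passed the test, 374 were on the same side of the threshold under the alternatives tried, 35 missed it and 0 changed sign. Counts of the 10 genes called in Asxl1-/-Jak2V617F against Jak2V617F, Jak2V617F against WT, Asxl1-/- against WT and the interaction stayed within 1.5 times under every alternative. In Asxl1-/-Jak2V617F against WT, 0 genes of the 10 were called higher without a filter, with a term for sex, with the groups fitted alone or with a replicate block, and 1 was called lower with the groups fitted alone or a replicate block. Without 1 library, 0 to 1 were higher and 1 to 2 lower. In Asxl1-/-Jak2V617F against Asxl1-/-, 0 were lower with a term for sex, and 0 to 1 without 1 library.

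Counts over all genes moved by over 1.5 times in 3 comparisons. Asxl1-/- against WT called 3664 genes, 502 with a term for sex, and 288 to 4376 without 1 library (288 without Asxl1-/- 1, 1407 without Asxl1-/- 2, 1929 without WT 2, 2182 without WT 3). Asxl1-/-Jak2V617F against WT called 2449, and 531 to 3493 without 1 library (1116 and 842 without Asxl1-/-Jak2V617F 1 and 2, 531 and 665 without WT 2 and 3). Asxl1-/-Jak2V617F against Asxl1-/- called 899, 1458 by DESeq2, 585 with a replicate block, 52 with a term for sex, and 86 to 952 without 1 library (526 and 359 without Asxl1-/-Jak2V617F 1 and 2, 165 and 86 without Asxl1-/- 1 and 2). The cause was not tested.

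Signs that changed belong to differences that had not passed. With a term for sex, log2 values were 0.078 for Tlr7 in Asxl1-/-Jak2V617F against Jak2V617F; -0.67, -0.75, -0.15 and -0.12 for Tlr2, Tlr4, Tlr7 and Casp1 in Asxl1-/- against WT; 0.36 and 0.17 for Tlr9 and Casp1 in Asxl1-/-Jak2V617F against Asxl1-/-; and 0.23 for the Tlr7 interaction. With a replicate block they were -0.076 for Tlr4 in Asxl1-/- against WT and 0.0093 for Casp1 in Asxl1-/-Jak2V617F against Asxl1-/-. The block ended the calls of Il1r2 in Jak2V617F against WT and of Myd88 and Il1rn in Asxl1-/-Jak2V617F against WT. DESeq2 gave 0.0027 for Myd88 in Jak2V617F against WT.

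Leaving out 1 library at a time, log2 values ran from -0.32 to 0.064 for Tlr7 and -0.13 to 0.87 for Nlrp3 in Asxl1-/-Jak2V617F against Jak2V617F, and from -0.068 to 0.021 for Myd88 in Jak2V617F against WT. In Asxl1-/- against WT they ran from -0.049 to 0.22 for Casp1, -0.84 to 1.20 for Il1b and -0.40 to 0.014 for Il1rn. In Asxl1-/-Jak2V617F against WT they ran from -0.89 to 0.31 for Nlrp3 and -0.075 to 0.19 for Casp1. In Asxl1-/-Jak2V617F against Asxl1-/- they ran from -0.23 to 0.36 for Tlr2, -0.13 to 0.29 for Tlr4, -0.49 to 0.26 for Tlr9, -0.11 to 0.089 for Casp1 and -0.42 to 0.087 for Il1r2. The Il1b interaction ran from -0.047 to 1.99.

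Depth limits Il1rn in Jak2V617F cells most, at 9 to 27 reads per library, and the 2 Asxl1-/- libraries, both of the other sex than WT, limit each comparison that uses them.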
